A study of Rattus norvegicus with 5 samples.

Results

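Dividing cells were examined in cultures of neonatal rat ventricle, where a cell was counted as dividing when it had at least 500 detected genes and carried transcripts of both Mki67 and Top2a. The cells were thus chosen by their own Mki67 and Top2a values, and this rule took 3032 of 36996 cells (8.20%) over 5 single-cell RNA libraries. Mki67 encodes Ki-67, a protein that coats mitotic chromosomes and is lost from resting cells. Top2a encodes DNA topoisomerase II alpha, which untangles sister chromatids before they separate, and its transcript builds up towards mitosis. Heart muscle cells of newborn rats still enter the cell cycle, but most leave it in the first weeks after birth, often after a last round of DNA synthesis that leaves them with a pair of nuclei. Fibroblasts and other stromal cells keep the ability to divide. The transcripts mark cells in the cycle, and neither DNA content nor cell division itself was measured here, so that "dividing" stands for the pair of transcripts only.

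All cultures were primary ventricular cells, myocytes and non-myocytes together, from wild-type Sprague Dawley rats at postnatal day 2. They had received an adenovirus for GFP or an adenovirus for TBX18, a transcription factor of the developing sinus node, and were collected at day 3 or day 14. A further TBX18 culture of day 14 also received 0.2 µM of A83-01, an inhibitor of the TGF-beta type I receptor. Its labels conflict on the time, with day 14 in some and 3 days in the treatment entry, so how long the inhibitor was present is unsettled. The groups are called GFP day 3, TBX18 day 3, GFP day 14, TBX18 day 14 and TBX18 with A83-01 below, and they held 1227, 679, 215, 385 and 526 dividing cells out of 8128, 6489, 6424, 8337 and 7618. Each group is 1 library, so no difference between groups was tested, and all intervals are exact 95% intervals that cover counting error only. How many animals or wells were pooled is not given in the sources used here. UMI sums of the libraries ran from 104781421 to 202024200 (UMIs are molecular tags that let each captured transcript be counted once). The day 3 tables held cells of every depth, while those of day 14 held only cells with 1997 to 5597 genes and 4645 to 33982 UMIs, so day 3 and day 14 differ in cell filter as well as in time. Of the barcodes, 133 occurred in more than 1 library, 16 of them among the dividing cells, and in 0 pairs of libraries was a barcode a dividing cell in both.

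The stretches before the start sites of Mki67 and Top2a are shown because these genes define the cells and were found together in them. Each runs 5′ to 3′ on the gene's own strand, from 250 bases before to 50 bases after the start, from RefSeq on build GRCr8. Mki67 lies on the minus strand at chr1:199952544-199952843 and Top2a on the minus strand at chr10:84473044-84473343. Capitals mark CCAAT, the core letters of the site of the factor NF-Y, and TTTGAA or TTCGAA, core letters of the cell cycle element called CHR, each on either strand. On the other strand CCAAT reads ATTGG, while TTTGAA reads TTCAAA there and TTCGAA reads the same.
Mki67: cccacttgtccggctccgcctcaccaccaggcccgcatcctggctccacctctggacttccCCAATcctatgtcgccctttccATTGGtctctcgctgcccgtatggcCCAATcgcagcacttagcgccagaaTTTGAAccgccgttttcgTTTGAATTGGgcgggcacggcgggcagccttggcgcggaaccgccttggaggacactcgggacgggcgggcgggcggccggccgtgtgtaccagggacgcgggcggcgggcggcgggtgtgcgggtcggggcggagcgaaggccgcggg
Top2a: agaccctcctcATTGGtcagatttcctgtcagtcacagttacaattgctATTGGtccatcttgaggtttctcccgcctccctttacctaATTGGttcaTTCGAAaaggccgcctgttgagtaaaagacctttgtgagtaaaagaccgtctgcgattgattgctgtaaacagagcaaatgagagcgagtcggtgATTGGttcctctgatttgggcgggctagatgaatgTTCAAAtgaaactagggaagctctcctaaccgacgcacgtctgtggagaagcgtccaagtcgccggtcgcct
Both windows held CCAAT 4 times. Mki67 had TTTGAA 2 times, and the second match shared a base with a CCAAT in reverse. Top2a had TTTGAA 1 time, in reverse, and TTCGAA 1 time. Among all 33469 promoter windows of the same table and length, 37.5% held a CCAAT, 3.02% held 3 or more, 18.3% held TTTGAA and 1.69% held TTCGAA. Windows with both a CCAAT and either of the other words made up 7.95%. In the windows of Tnnt2 and Actc1, the myocyte genes used below, 0 matches of any of the 3 words were found. Of the 6 genes of the rule, 4 were matched by symbol, and Col1a1 and Col3a1 were not. A match of letters is a description and shows no binding.

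Top2a was detected far more often in cells with Mki67 than in cells without it. It was found in 72.0% (69.9 to 74.2), 69.6% (66.6 to 72.5), 62.3% (57.0 to 67.5), 57.8% (54.0 to 61.6) and 70.4% (67.0 to 73.7) of the cells with Mki67, in the order GFP day 3, TBX18 day 3, GFP day 14, TBX18 day 14 and TBX18 with A83-01. Among cells without Mki67 the shares were 4.78%, 3.83%, 1.68%, 3.91% and 1.86% in the same order. The dividing cells were few, yet they held from 89.3% to 94.4% of a library's Mki67 UMIs and from 95.4% to 98.7% of its Top2a UMIs. Their median cell had 7 to 9 Mki67 UMIs and 10 to 18 Top2a UMIs. Cells just outside the rule, with only one of the genes, had a median of 1 UMI of it in every library. They numbered 476, 296, 130, 281 and 221 with Mki67 alone and 307, 211, 102, 300 and 128 with Top2a alone. Just inside the rule, 40, 33, 14, 15 and 19 dividing cells had exactly 1 UMI of each gene, and 82.2% to 86.9% of dividing cells had at least 2 UMIs of both. These values describe how the cells were chosen and are no test.

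Free RNA can place a UMI in a droplet whose cell does not express the gene. No cell type known to lack both genes could be named here, so barcodes under 500 genes are given as a description. They are shallower than cells, with a median of 6613 UMIs in GFP day 3 and 10122 UMIs in TBX18 day 3, so they set no bound on free RNA at the depth of cells. Of 731 such barcodes of GFP day 3, 10 had Mki67 and 11 had Top2a, and 0 had both. Taking 3 counts as compatible with 0, and not an exact interval, this allows a share of up to 0.410%. Of 292 such barcodes of TBX18 day 3, 2 had Mki67, 2 had Top2a and 0 had both, which allows up to 1.03% in the same way. In GFP day 3 these barcodes held 2.11 CPM of Mki67 (CPM is the UMI count scaled to a fixed total of all UMIs of the cells summed), against 83.5 CPM in the barcodes with at least 500 genes.

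Dividing cells had higher UMI counts than the others, which the rule favours by construction, as deeper cells show both transcripts more often. The difference is therefore not read as one of RNA content. Their median UMI count was 31196 against 22277 in GFP day 3, 37330 against 28333 in TBX18 day 3 and 18856 against 15603 in GFP day 14. It was 20263 against 15426 in TBX18 day 14 and 23292.5 against 17331.8 in TBX18 with A83-01. The ratio of these medians lay between 1.21 and 1.40. Detection of 2 transcripts rises with depth, so shares are also given after every cell had been thinned at random to 5000 UMIs, which left out 176, 140, 3, 4 and 0 shallower cells. Dividing cells also lay more often among the top 6% of doublet scores. The shares were 12.9%, 13.0%, 11.6%, 5.71% and 8.17% of dividing cells against 4.17%, 5.15%, 5.48%, 5.26% and 5.15% of the others. With these cells left out, the share of dividing cells stayed within its interval at day 14 and was 13.9% in GFP day 3 and 9.69% in TBX18 day 3.

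The share of dividing cells was highest at GFP day 3 and lowest at GFP day 14, a difference that held at equal depth. It was 15.1% (14.3 to 15.9) in GFP day 3, 10.5% (9.73 to 11.2) in TBX18 day 3 and 3.35% (2.92 to 3.82) in GFP day 14. TBX18 day 14 had 4.62% (4.18 to 5.09) and TBX18 with A83-01 had 6.90% (6.35 to 7.50). None of these 5 intervals overlapped. At 5000 UMIs per cell the shares were 9.60%, 5.17%, 2.45%, 3.34% and 4.86%. At 5000 UMIs the intervals of TBX18 day 3 (4.63 to 5.74) and TBX18 with A83-01 (4.38 to 5.36) overlapped and the other neighbours in the order stayed apart. The level of Mki67 in the UMIs summed over all cells, to which deeper cells add more, was 83.5, 37.8, 22.3, 32.2 and 42.9 CPM in the order of the libraries. For Top2a it was 158, 58.7, 33.7, 63.8 and 64.5 CPM. GFP day 3 had the highest level of both genes. Which library was lowest depended on the cell filter. With all cells it was GFP day 14, but with day 3 cells held to the bounds of day 14 cells in genes and UMIs it was TBX18 day 3, at 17.8 CPM of Mki67 and 22.7 CPM of Top2a, and GFP day 3 had 58.9 and 112 CPM. With all cells, TBX18 day 3 also lay below TBX18 with A83-01 in both and below TBX18 day 14 in Top2a, against the order of the unthinned shares.

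Cells were then split by the larger of 2 sums in CPM. Tnnt2 encodes cardiac troponin T and Actc1 cardiac alpha-actin, both parts of the contractile apparatus, and their sum marked the myocyte class. Col1a1 and Col3a1 encode chains of the fibrillar collagens I and III, and their sum marked the stromal class. The myocyte class held 645, 356, 70, 76 and 90 dividing cells and the stromal class 579, 322, 142, 309 and 435, so that 1237 and 1787 of the 3032 fell in each, with 8 in neither. The split was wide for most cells. In the median dividing cell the genes of its own class made up at least 95.3% of the 4-gene sum in every library and class. Nearest the boundary were the dividing myocytes of TBX18 with A83-01, where 26 of 90 (28.9%) had sums within 4-fold of each other, against 14.7% of the other myocytes of that library. In the remaining 4 libraries 5.43% to 13.2% of dividing myocytes lay within 4-fold. Of the dividing stromal cells of GFP day 14, 32 of 142 (22.5%) lay within 4-fold, against 9.79% of its other stromal cells. For dividing stromal cells of the remaining libraries it was 4.83% to 9.84%.

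**Figure D1:**
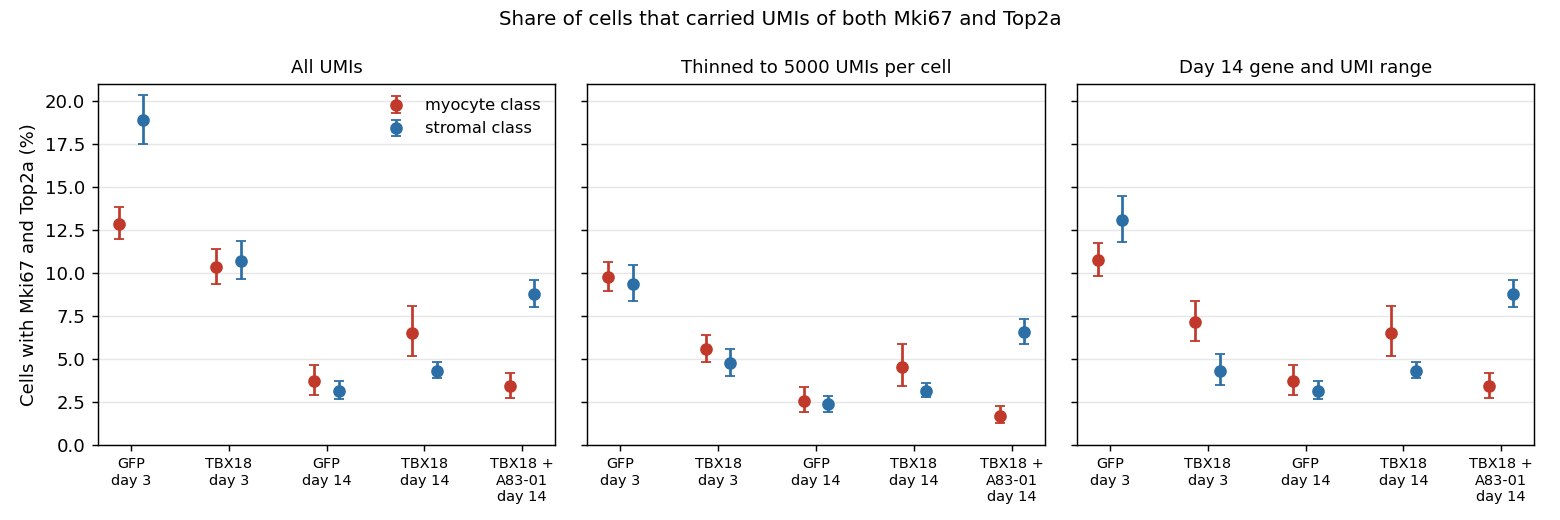
Percentage of cells with both Mki67 and Top2a (vertical axis) in the 5 libraries (horizontal axis), for the myocyte and the stromal class. Points are shares and bars exact 95% intervals from counting error, with all UMIs, at 5000 UMIs per cell, and with the gene and UMI range of the day 14 tables applied to every library. With A83-01 the stromal point lies above the myocyte point in all panels, and in GFP day 3 the stromal point leads only without thinning.

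At day 3, the share of dividing cells was lower with TBX18 than with GFP in both classes. Dividing cells were 12.9% (11.9 to 13.8) of myocytes with GFP and 10.3% (9.33 to 11.4) with TBX18. At 5000 UMIs the shares were 9.76% (8.94 to 10.6) and 5.54% (4.79 to 6.37), although TBX18 day 3 had the deeper cells. Stromal shares were 18.9% (17.5 to 20.3) with GFP and 10.7% (9.62 to 11.9) with TBX18, and 9.35% and 4.76% at 5000 UMIs. Within the day 14 range of genes and UMIs, the stromal shares were 13.1% and 4.31% and the myocyte shares 10.7% and 7.15%. Levels over all cells of a class went the same way, with Mki67 at 98.3 CPM in myocytes with GFP and 40.6 CPM with TBX18, and at 63.0 and 34.8 CPM in stromal cells. Within the day 14 range they were 74.2 and 24.5 CPM in myocytes and 33.7 and 11.2 CPM in stromal cells.

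At day 14 the order of the viruses was the opposite. Dividing cells were 3.70% (2.90 to 4.66) of myocytes with GFP and 6.49% (5.15 to 8.06) with TBX18, and 2.54% (1.88 to 3.35) and 4.53% (3.41 to 5.88) at 5000 UMIs. In stromal cells the shares were 3.15% (2.66 to 3.70) and 4.31% (3.85 to 4.81). At 5000 UMIs the stromal intervals overlapped, with 2.35% (1.93 to 2.84) and 3.14% (2.75 to 3.57). Top2a over all myocytes was 33.3 CPM with GFP and 90.4 CPM with TBX18, and over all stromal cells 33.7 and 59.4 CPM. Myocyte shares rest on 70 and 76 dividing cells.

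From day 3 to day 14, the GFP cultures had lower shares in both classes with all UMIs, at 5000 UMIs and within the day 14 range of genes and UMIs. Myocyte shares were 12.9% and 3.70%, or 10.7% and 3.70% within that range, and stromal shares in that range were 13.1% and 3.15%. For TBX18 the difference depended on how depth was treated. In its myocytes the shares within that range were 7.15% (6.06 to 8.37) at day 3 and 6.49% (5.15 to 8.06) at day 14, and in its stromal cells 4.31% (3.48 to 5.26) and 4.31% (3.85 to 4.81). At 5000 UMIs the myocyte intervals also overlapped, with 5.54% and 4.53%. Stromal shares at 5000 UMIs were 4.76% (4.02 to 5.59) and 3.14% (2.75 to 3.57). Mki67 over all TBX18 myocytes was 40.6 CPM at day 3 (24.5 CPM within the day 14 range) and 48.3 CPM at day 14, so that level and unthinned share went opposite ways and no order is read from them.

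With A83-01 added to TBX18, the share of dividing cells was higher among stromal cells and lower among myocytes. Dividing myocytes numbered 90 of 2654 myocytes with A83-01 and 76 of 1171 with TBX18 alone. At 5000 UMIs they numbered 45 and 53, so no order of the numbers is read. The stromal share was 8.78% (8.004 to 9.60) with A83-01 and 4.31% with TBX18 alone, and 6.56% and 3.14% at 5000 UMIs. The myocyte share was 3.39% (2.74 to 4.15) with A83-01 and 6.49% with TBX18 alone, and 1.70% (1.24 to 2.26) and 4.53% at 5000 UMIs. Mki67 over all stromal cells was 61.3 CPM with A83-01 and 29.6 CPM without, and over all myocytes 13.6 and 48.3 CPM. Top2a was 97.2 and 59.4 CPM in stromal cells and 12.4 and 90.4 CPM in myocytes. Where the larger sum had to be at least 4 times the other, the myocyte shares were 2.84% and 6.51%. That margin uses the genes that set the class. Without the top 6% of doublet scores, the myocyte shares were 3.24% with A83-01 and 6.67% with TBX18 alone. The stromal shares were then 8.46% and 4.25%. The part of doublets in the difference was not tested.

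The make-up of the dividing cells moved with these shares. Myocytes were 52.7% (49.9 to 55.5) of the dividing cells of GFP day 3 and 63.7% of its other cells. For TBX18 day 3 the values were 52.5% and 53.5%, and for GFP day 14 33.0% and 29.4%, each pair with overlapping intervals. TBX18 day 14 had 19.7% (15.9 to 24.1) among dividing and 13.8% (13.0 to 14.5) among other cells. With A83-01 the order turned, to 17.1% (14.0 to 20.6) of the dividing cells against 36.2% (35.1 to 37.3) of the others. The myocyte deficit among the dividing cells of GFP day 3 was seen with all UMIs, and at 5000 UMIs its myocytes and stromal cells had 9.76% and 9.35% dividing. Mki67 over all cells of GFP day 3 was higher in myocytes (98.3 CPM) than in stromal cells (63.0 CPM), against the unthinned shares, so no order of the classes is read there.

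How much Mki67 and Top2a a dividing cell carried also varied. In dividing myocytes, summed Mki67 was 558, 304, 599.8, 529 and 299 CPM in the order of the libraries, and in dividing stromal cells 237, 218, 508, 508 and 502 CPM. Top2a was 1102, 465, 786, 1042 and 303 CPM in dividing myocytes and 472, 382, 896, 1094 and 834 CPM in dividing stromal cells. Dividing myocytes of TBX18 with A83-01 had the lowest Top2a of the 10 groups, while those of GFP day 3 and the dividing stromal cells of TBX18 day 14 had the highest. Single cells spread widely around these sums. In dividing myocytes of GFP day 3, Mki67 ran from 26.6 through a median of 497 to 2160.02 CPM, and with A83-01 from 29.9 through 247 to 1639.8 CPM. Deeper cells can enter the rule with a lower CPM, and the part of depth in these differences was not tested. Dividing myocytes had a median of 21759 UMIs in TBX18 day 14 and 23106 UMIs with A83-01. The Top2a to Mki67 ratio of UMIs was 1.01 (0.905 to 1.14) in the dividing myocytes with A83-01, against 1.97 (1.81 to 2.14) with TBX18 alone and 1.66 (1.60 to 1.72) in the dividing stromal cells with A83-01. In the remaining 7 groups it lay between 1.31 and 2.15.

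**Figure D2:**
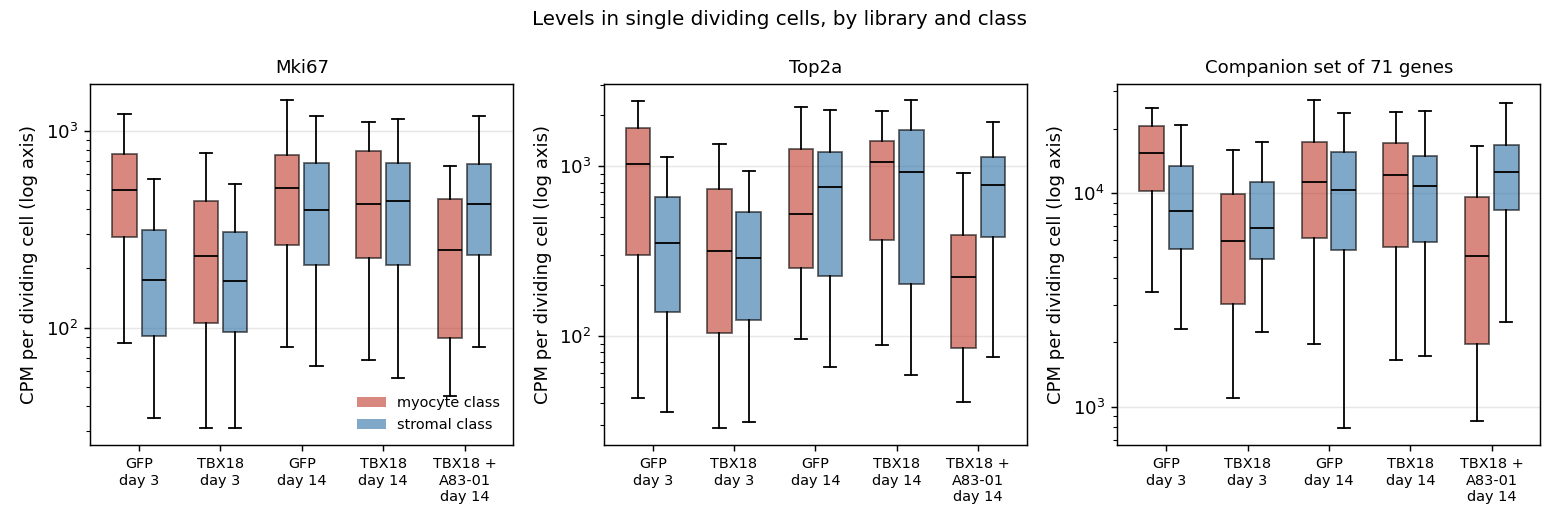
CPM per dividing cell on a log axis (vertical), for Mki67, Top2a and the sum of 71 companion genes, by library (horizontal) and class. Boxes span the quartiles with the median as a line, and whiskers reach the 5th and 95th percentiles of cells. Dividing myocytes of TBX18 with A83-01 have a median companion level of 5089 CPM, the lowest of the 10 groups.

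Companion genes of the pair were used to look at the boundary of the rule. In GFP day 3, 71 unnamed genes were at least 8-fold higher in the dividing cells of both classes, a set chosen after its values were seen. The high companion level of dividing cells in GFP day 3 was thus fixed by the choice and is no result. Their summed level in the median dividing cell was 11931, 6475, 10339.9, 10799 and 10987 CPM in the order of the libraries. In cells with neither gene it was 138, 142, 110, 145 and 107 CPM, and in cells with one gene only 261, 385, 286, 204 and 350 CPM. The 10 percent of dividing cells with the lowest companion level lay under 4149, 2167, 2042, 2451 and 2602 CPM. Above that mark stood 18.4%, 17.0%, 14.7%, 9.64% and 16.9% of the cells with one gene only, and 0.409%, 0.453%, 0.218%, 0.163% and 0.0593% of the cells with neither gene. Dividing cells with exactly 1 UMI of each gene were mixed in this respect, with a median of 1964 CPM in GFP day 3 and 562 CPM in GFP day 14. With A83-01 the companion level was 5089 CPM in the median dividing myocyte and 12562 CPM in the median dividing stromal cell. For TBX18 day 14 these medians were 12096 and 10784 CPM.

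The profile of dividing cells against the others of the same class was led by genes that were higher, and few were lower. Ratios are log2 of summed CPM with 0.5 CPM added, for genes with a mean of 20 CPM or more over dividing and other cells. A gene near absent from the other cells could thus pass through the dividing cells alone, and the reverse also holds. The leading higher genes named below were under 20 CPM in the other cells of their class. In the myocyte class 237 of 4866 genes (4.87%) were at least 2-fold higher in all 5 libraries and 1 (0.0206%) was at least 2-fold lower. In the stromal class 249 of 5246 genes (4.75%) were higher and 2 (0.0381%) lower. Genes above the minimum in both classes numbered 4075, and 179 of these were higher in every library and class, which is 84.4% of the 212 in the myocyte list and 88.6% of the 202 in the stromal list. Mki67 and Top2a are counted among the 179. Of these, 76 were at least 8-fold higher throughout. The median log2 ratio of the 179 was 3.54 in myocytes and 3.34 in stromal cells, against 0.17 and 0.095 over all genes. A larger ratio in one class, by 1 log2 unit or more in all 5 libraries, was found for 2 genes in myocytes and 2 in stromal cells. Over genes, the ratios of the classes had Pearson's r between 0.89 and 0.93 within a library, and ratios of different libraries had r between 0.91 and 0.97 within a class. Genes are not independent replicates, classes of 1 library share its depth and free RNA, and all libraries share the rule. The rule and this contrast use the same cells, so the profile is a description.

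**Figure D3:**
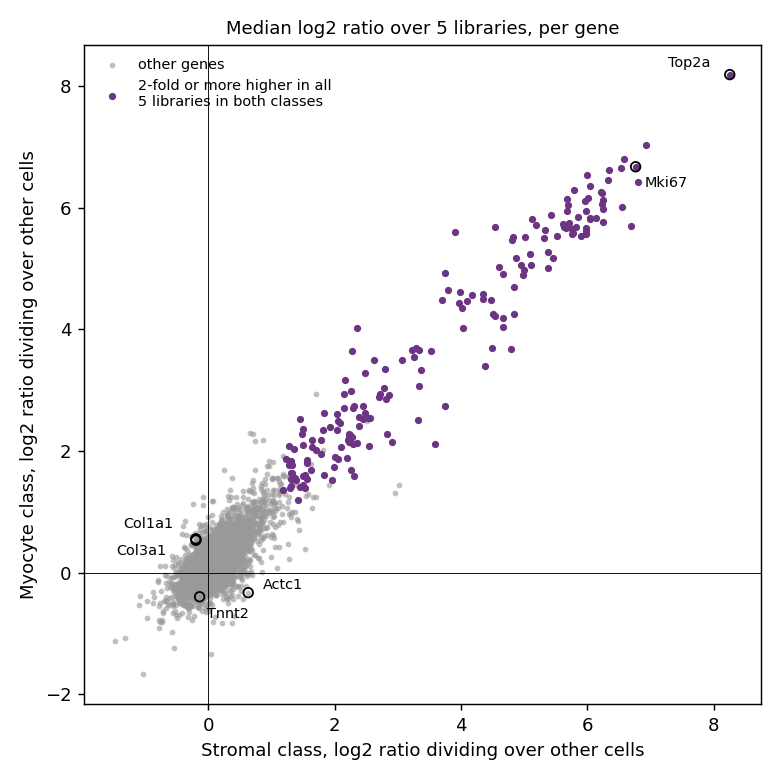
Median over 5 libraries of the log2 ratio of dividing over other cells, for each gene in the stromal class (horizontal) and the myocyte class (vertical). Purple points are the 179 genes at least 2-fold higher in all libraries in both classes, and circles mark the 6 genes of the rule. Purple points run along the diagonal with a median of 3.54 in myocytes and 3.34 in stromal cells, and Tnnt2 and Actc1 lie below 0 on the myocyte axis.

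Genes carry only Ensembl IDs in the files, so the leading ones are given by ID, ranked by their smallest ratio over the 5 libraries. Outside the genes of the rule, the leader in myocytes was ENSRNOG00000003388, at 802 CPM in dividing and 8.12 CPM in other cells of GFP day 3 (log2 ratio 6.63, 6.52 to 6.73). Its log2 ratios in the remaining libraries were 6.58, 9.03, 6.27 and 7.32, and in stromal cells they ran from 4.13 to 6.96. In stromal cells the leading gene was ENSRNOG00000004921, at 241 against 2.44 CPM in GFP day 3 and 470.4 against 3.63 CPM with A83-01, with log2 ratios from 5.70 to 7.34. In myocytes its ratios ran from 5.61 to 7.21. Both were higher in all 10 groups.

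The leading lower genes of the myocyte and the stromal class differed in how far they crossed classes. Of the 2 lower genes of the stromal class, only the leading one is given. ENSRNOG00000007587 was at 25.1 against 111 CPM in myocytes of GFP day 3, 12.9 against 32.3 in TBX18 day 3 and 17.1 against 62.7 in GFP day 14. In TBX18 day 14 it was at 9.15 against 43.5 CPM and with A83-01 at 22.3 against 74.3 CPM. Its log2 ratios ran from -2.25 to -1.32 in myocytes and from -1.56 to -1.16 in stromal cells, where it was below the minimum of 20 CPM. ENSRNOG00000021719 was lower in stromal cells only as far as all 5 libraries go, with log2 ratios from -2.96 with A83-01 to -1.69 in GFP day 3. In myocytes its ratio was 0.23 (-0.015 to 0.47) in GFP day 3 and negative in the remaining 4 libraries, where the intervals of TBX18 day 3 and A83-01 included 0. The negative ratio of GFP day 14 rested on 3 UMIs in dividing myocytes.

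Tnnt2 was lower in dividing than in other myocytes of every library, and Actc1 in all but TBX18 day 3. Tnnt2 was at 7839 CPM in dividing and 10283 CPM in other myocytes of GFP day 3 (log2 ratio -0.39) and at 5482 and 5926 CPM in TBX18 day 3 (-0.11). In GFP day 14 it was at 6740.2 and 11478 CPM (-0.77), in TBX18 day 14 at 8979 and 12796 CPM (-0.51) and with A83-01 at 7934 and 10449 CPM (-0.40). Tnnt2 was thus lower in the dividing myocytes of 5 of 5 libraries, also where the other cells were weighted to the same UMI counts (-0.75 to -0.11). Actc1 was at 3931 and 5326 CPM in GFP day 3, 7439 and 10217 CPM in GFP day 14, 7787 and 9789.9 CPM in TBX18 day 14 and 9832 and 12163 CPM with A83-01. It was lower in those 4 libraries, with log2 ratios from -0.46 to -0.31. TBX18 day 3 had 12789.7 and 12124 CPM, a log2 ratio of 0.077, which is -0.052 under median-of-ratios scaling. That scaling, which sets the typical gene at no change, lowered every log2 ratio of myocytes by 0.11 to 0.24 and every one of stromal cells by 0.049 to 0.11. Both genes also set the class, and the ratio within the class is a description. In dividing over other stromal cells, Actc1 had log2 ratios of 0.97, 0.72, 0.26, 0.63 and 0.071 in the order of the libraries. With the other cells weighted to the same UMI counts, these were 0.10, 0.016, -0.51, 0.18 and -0.86. Tnnt2 in stromal cells had log2 ratios of 0.31, -0.22, 0.069, -0.14 and -0.33. With that weighting they were -0.23, -0.41, -0.66, -0.44 and -1.07, below 0 in every library.

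**Figure D4:**
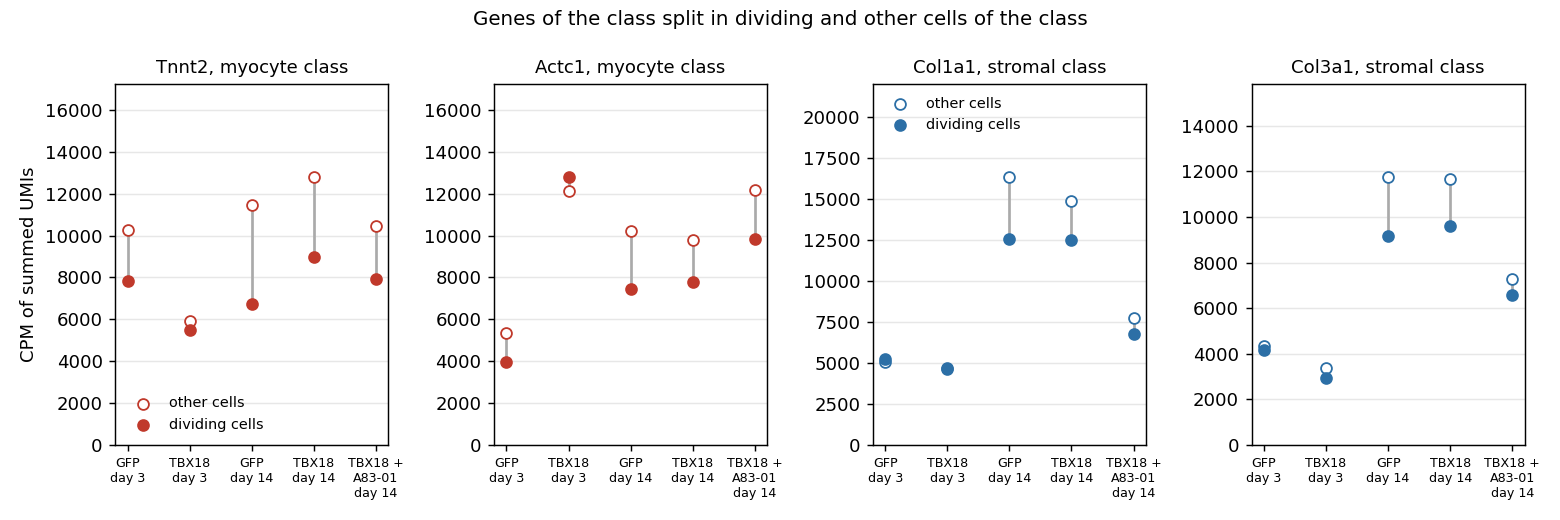
CPM of summed UMIs (vertical axis, from 0) in dividing cells (filled) and other cells (open) of the class, by library (horizontal axis), for the 4 genes that split the classes. Tnnt2 is lower in dividing myocytes in 5 of 5 libraries, and both collagens are lower in dividing stromal cells in the 3 libraries of day 14.

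Col3a1 was lower in dividing than in other stromal cells of every library, and Col1a1 in those of day 14. Col1a1 was at 5239 and 5071 CPM in GFP day 3 (log2 ratio 0.047) and at 4687 and 4637 CPM in TBX18 day 3 (0.015). Both directions turned when the other cells were weighted to the same UMI counts (-0.12 and -0.19) and under median-of-ratios scaling (-0.042 and -0.091). At day 14 it was at 12525 and 16306 CPM with GFP, 12478 and 14828 CPM with TBX18 and 6738 and 7716 CPM with A83-01, with log2 ratios of -0.38, -0.25 and -0.20. Col3a1 was at 4178 and 4313 CPM in GFP day 3 and at 2928 and 3349 CPM in TBX18 day 3. At day 14 its levels were 9172 and 11745 CPM with GFP, 9616 and 11674 CPM with TBX18 and 6589.7 and 7278 CPM with A83-01. All 5 log2 ratios of Col3a1 were below 0, from -0.36 to -0.046. The ratio of TBX18 day 3 was -0.19, and that with A83-01 was -0.14, or -0.051 with the other cells weighted to the same UMI counts. In dividing over other myocytes, Col1a1 had log2 ratios of 0.56, 0.76, 0.050, -0.92 and 0.57 in the order of the libraries. With that weighting these were -0.98, 0.079, -0.37, -1.58 and 0.19. Col3a1 in myocytes had unweighted log2 ratios of 0.54, 0.70, -0.37, -0.78 and 0.53. Weighted, they were -0.88, 0.034, -0.79, -1.42 and 0.18, so the direction turned in GFP day 3.

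Transgene transcripts were less abundant in dividing than in other myocytes of TBX18 day 3. The share of UMIs from free transgene RNA was not measured in any library, so a cell with 1 UMI is called positive and not transduced. ZsGFP, a fluorescent protein gene found in the TBX18 libraries, was at 10.9 CPM (9.14 to 12.9) in dividing and 59.7 CPM (58.1 to 61.3) in other myocytes, and hTBX18, the human TBX18 transcript, at 8.67 (7.13 to 10.5) and 23.7 CPM (22.7 to 24.8). The log2 ratios were -2.46 and -1.45. At 5000 UMIs, 32 of 354 dividing myocytes carried a UMI of either feature, 9.04% (6.27 to 12.5), against 568 of 2985 others, 19.0% (17.6 to 20.5). Without thinning the shares were 30.1% and 44.1%. Counted the other way, with division also judged at 5000 UMIs, 13 of 600 myocytes with a transgene UMI were dividing, 2.17% (1.16 to 3.68), against 172 of 2739 without one, 6.28% (5.40 to 7.25).

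The GFP virus at day 3 gave another picture. EGFP was at 97.8 CPM (93.5 to 102.3) in dividing and 90.04 CPM (88.1 to 92.0) in other myocytes of GFP day 3, a log2 ratio of 0.12 that turned to -0.36 with other cells weighted to the same UMI counts and to -0.096 under median-of-ratios scaling. The share with a UMI was 29.6% (26.1 to 33.3) of dividing and 23.3% (22.004 to 24.6) of other myocytes at 5000 UMIs, and 66.2% and 50% without thinning. Of myocytes with an EGFP UMI 11.6% (9.82 to 13.6) were dividing, against 9.18% (8.27 to 10.2) of those without. No direction is therefore read for EGFP at day 3, since it turned with depth and scaling, and whether GFP and TBX18 differ in this was not tested. At day 14 EGFP was at 94.8 CPM in dividing and 169.8 CPM in other myocytes (log2 ratio -0.84), and a UMI was found in 11 of 70 dividing myocytes, 15.7% (8.11 to 26.4), against 29.4% (27.3 to 31.5) of the others at 5000 UMIs. Of 546 myocytes with an EGFP UMI there, 6 were dividing, 1.10% (0.404 to 2.38), against 3.13% (2.26 to 4.20) of 1344 without one.

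In the later TBX18 libraries the positive shares of dividing and other myocytes had overlapping intervals. In TBX18 day 14, 5 of 76 dividing myocytes (6.58%, 2.17 to 14.7) and 6.67% of the others had a UMI at 5000 UMIs. With A83-01 it was 4 of 90 (4.44%, 1.22 to 10.99) and 4.72%. Summed levels with A83-01 were lower in dividing myocytes, though from only 4 UMIs of ZsGFP and 5 of hTBX18. ZsGFP was at 1.99 against 5.83 CPM (log2 ratio -1.55, -3.44 to -0.18) and hTBX18 at 2.48 against 6.85 CPM (-1.46, -3.10 to -0.23). In TBX18 day 14 the ratios were 0.11 (-0.83 to 0.94) and -0.42 (-1.45 to 0.46).

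In stromal cells transgene UMIs were rare, with 3.28%, 2.80%, 2.11%, 0.649% and 0.920% of dividing stromal cells positive at 5000 UMIs in the order of the libraries, against 2.47%, 2.10%, 6.73%, 0.992% and 1.26% of the others. At 5000 UMIs the intervals overlapped in all 5 libraries, in GFP day 14 only just, at 2.11% (0.438 to 6.05) against 6.73% (6.01 to 7.51). Without thinning the shares of GFP day 3 were 14.7% (11.9 to 17.8) of dividing and 8.93% (7.83 to 10.1) of other stromal cells. Summed levels were lower in dividing stromal cells for EGFP in GFP day 14 (log2 ratio -1.57, -2.22 to -0.99) and for ZsGFP in TBX18 day 3, at 4.99 against 9.95 CPM (interval of the log2 ratio -1.38 to -0.63). Such intervals take UMIs as independent. ZsGFP in these cells of TBX18 day 3 had a cell median of 0 CPM, with single cells at up to 507 CPM in dividing and 3084 CPM in other cells. With A83-01, 6 UMIs of ZsGFP gave -1.33 (-2.80 to -0.16), and 1 UMI of hTBX18 gave -3.48 (-8.80 to -0.96). In TBX18 day 14, ZsGFP had 0 UMIs in dividing stromal cells, where 3 counts would be 0.494 CPM, against 1.30 CPM in the others. The intervals of EGFP in GFP day 3 and of hTBX18 in TBX18 day 3 and TBX18 day 14 included 0. With the other cells weighted to the same UMI counts, EGFP in GFP day 3 stromal cells was at a log2 ratio of -0.80 in place of -0.039. With division also judged at 5000 UMIs, 1 of 297 stromal cells with an EGFP UMI was dividing in GFP day 14, 0.337% (0.00852 to 1.86), against 2.49% (2.04 to 3.01) of 4213 without one. TBX18 day 3 went the other way, with 9.23% (3.46 to 19.0) against 4.66% (3.92 to 5.49). The shares with and without a UMI were 10% and 9.34% in GFP day 3 and 2.86% and 3.14% in TBX18 day 14. They were 4.92% and 6.58% with A83-01, and the intervals overlapped in all libraries but GFP day 14. Depth is too low to call cells that lack transgene UMIs free of virus.

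**Figure D5:**
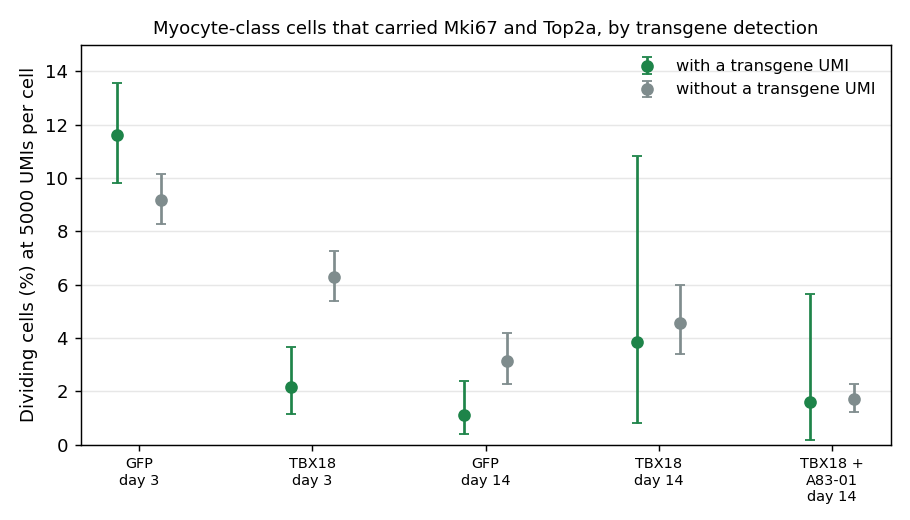
Percentage of myocyte-class cells that were dividing at 5000 UMIs per cell (vertical axis), for cells with and without a UMI of the transgenes of their own virus, by library (horizontal axis). Bars are exact 95% intervals from counting error. In TBX18 day 3 the share was 2.17% with and 6.28% without a transgene UMI, and in the later TBX18 libraries the intervals overlap.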

How the data were processed

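Per the labels' protocols, 5 droplet libraries were prepared with a 3' kit, version 3.1. STAR 2.7.8a, Partek and the build Rnor_6.0 are named in the submitters' processing notes, without their roles. The values deposited for day 3 are estimated counts per gene and cell (99.7% whole within 0.05), and those deposited for day 14 are log2 of CPM plus 1. Counts of day 14 were recovered here by setting each cell's commonest value above 0 to 1 UMI, which left 99.7% of values whole. This step and the ratios were tested on simulated data. The design had assumed whole counts, so sums were rounded for exact intervals. CPM values in the text come from UMIs summed over cells.

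Cells needed 500 genes, a class needed the larger of its 2-gene sums, and no cell was removed as a doublet. Scrublet (scanpy 1.11.5) scored doublets in each library. Its automatic threshold marked 9, 248, 2, 2 and 181 cells, too few to have worked in 3 libraries, so the top 6% of scores of a library served as an alternative. Shares carry Clopper-Pearson intervals, sums Poisson intervals and ratios of sums conditional binomial intervals (scipy 1.17.1), all at 95%. Intervals of sums and of their ratios take UMIs as independent and leave out the spread between cells. Thinning drew UMIs without replacement. The named genes are the 6 of the rule, the virus features, and the leading gene in each direction and class by its smallest change over the libraries.

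The gene table used here matched 0 of 17060 Ensembl IDs. The 17 gene lists written by symbol, other cell type markers included, and their summed levels could not be applied, and no other cell cycle gene, myocyte gene or cell type is named. The members and lists were chosen with earlier results of these data known.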

Additional observations from a re-analysis of the deposited data

Results flagged for a closer look

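With A83-01 against TBX18 alone at day 14, the share of dividing cells went opposite ways in the 2 classes. It was 6.49% in myocytes with TBX18 and 3.39% with A83-01, and 4.31% and 8.78% in stromal cells. This contrast of the classes was not tested, as there was 1 library per group.

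TBX18 against GFP went opposite ways at the 2 days. The myocyte shares were 12.9% with GFP and 10.3% with TBX18 at day 3, and 3.70% and 6.49% at day 14. The stromal shares were 18.9% and 10.7% at day 3, and 3.15% and 4.31% at day 14. No test of this change between days was made, so it was not tested.

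Actc1 in dividing over other myocytes had log2 ratios of -0.44, -0.46, -0.33 and -0.31 in GFP day 3, GFP day 14, TBX18 day 14 and TBX18 with A83-01, and of 0.0772 in TBX18 day 3. EGFP in dividing over other myocytes had a log2 ratio of 0.12 in GFP day 3 and -0.84 in GFP day 14. Col1a1 in dividing over other stromal cells had log2 ratios of 0.0469 and 0.0152 at day 3 with GFP and TBX18, and of -0.38, -0.25 and -0.20 at day 14 with GFP, TBX18 and A83-01. None of these differences between libraries was tested.

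Barcodes of GFP day 3 with fewer than 500 genes, which are outside the cells compared, held 11 UMIs of Mki67 and 11 UMIs of Top2a, more than the 3 counts compatible with 0. Their level of each gene was 2.11 CPM, against 83.5 CPM of Mki67 and 158 CPM of Top2a in the barcodes with at least 500 genes.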

How the results depend on the processing

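Of 213 values recomputed with 1 choice changed at a time, 115 stayed within their interval or 1.5 times their count, 91 moved and 7 changed direction. No paired analysis was possible because each group has 1 library. Single cultures, 1 library per group and the day 14 cell filter limit every comparison, and transgene UMIs in dividing cells of the TBX18 libraries of day 14 are few. In the order GFP day 3, TBX18 day 3, GFP day 14, TBX18 day 14 and TBX18 with A83-01, thinning to 5000 UMIs gave shares of 9.60%, 5.17%, 2.45%, 3.34% and 4.86% over all cells, 9.76%, 5.54%, 2.54%, 4.53% and 1.70% in myocytes, and 9.35%, 4.76%, 2.35%, 3.14% and 6.56% in stromal cells. The day 14 range of genes and UMIs gave 11.6% and 5.68% over all cells at day 3, 10.7% and 7.15% in myocytes, and 13.1% and 4.31% in stromal cells. Requiring 2 UMIs of both genes gave 13.0%, 8.60%, 2.82%, 3.85% and 5.999% over all cells. In myocytes it gave 11.6% and 8.24% at day 3 and 2.26% with A83-01, and in stromal cells 15.4%, 9.08% and 3.50% for GFP day 3, TBX18 day 3 and TBX18 day 14. Every barcode of GFP day 3 gave 13.9% over all cells and 11.54% in myocytes. Without the top 6% of doublet scores, GFP day 3 had 13.9% over all cells, 11.8% in myocytes and 17.5% in stromal cells, and TBX18 day 3 had 9.69% over all cells.

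Genes higher in all libraries numbered 40 in myocytes and 56 in stromal cells with a minimum of 100 CPM, and 564 and 574 with no minimum. Genes lower in all libraries numbered 0 and 1 with that minimum and 3 and 7 with none. They numbered 1 in stromal cells with a pseudocount of 5 CPM and 2 in myocytes without the top doublet scores. Leaving out each library in turn gave 229 to 297 higher genes in myocytes and 246 to 263 in stromal cells. It gave 1 to 2 lower genes in myocytes, the 2 without TBX18 with A83-01, and 2 to 5 in stromal cells, the 5 without TBX18 day 3. Without thinning, dividing myocytes with a transgene UMI were 66.2%, 30.1% and 34.3% in the first 3 libraries and dividing stromal cells 14.7%, 9.94% and 11.97%.

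Weighting and scaling of the ratios of named genes were chosen after seeing the data. The log2 ratio of EGFP in myocytes of GFP day 3 became -0.36 with other cells weighted to the same UMI counts and -0.096 under median-of-ratios scaling. That of Col1a1 in stromal cells became -0.12 and -0.042 in GFP day 3, and -0.19 and -0.091 in TBX18 day 3. That of Actc1 in myocytes of TBX18 day 3 became -0.052 under median-of-ratios scaling. The cause of these changes was not tested.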
